A study of Mus musculus with 12 samples.

Results

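168FARN is 1 of 4 mouse breast cancer cell lines whose microRNAs (miRNAs) were measured on one-colour Agilent arrays, and its 3 arrays of 12 were set here against those of the 3 other lines, 67NR, 4TO7 and 4T1, with 3 arrays each. The comparison asks which miRNAs lie above or below every other line of the series, and how 168FARN differs from the equally weighted mean of the 3. Per the labels each line is wild type, female, of the Balb/C strain and from a spontaneous Balb/C breast tumour, and the labels name no treatment. 4T1 carries the label metastatic, while 168FARN, 67NR and 4TO7 carry the label non-metastatic. The stated purpose was to find miRNAs tied to single steps of metastasis by setting the non-metastatic lines beside 4T1. Each line stands for 1 tumour cell population, so a difference between lines is not a difference between stages in many tumours. Nothing in the labels tells whether repeats of a line were grown separately, so p-values measure the spread between these arrays, which may be technical.

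miRNAs are short RNAs that guide Argonaute proteins to messenger RNAs, mostly through bases 2 to 8 of the miRNA, called the seed. Many are cut from 1 long transcript in clusters, so that neighbours in the genome often rise and fall together, and either strand of a hairpin can be kept; an asterisk marks the minor, or passenger, strand in the array's naming. 168FARN is known as a line that leaves the primary tumour and reaches draining lymph nodes without growing out at distant sites. In breast tissue the let-7 and miR-29 families are known for holding back growth or invasion, the miR-17-92 cluster for promoting proliferation, and the miR-200 family for keeping cells epithelial.

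The array holds 567 mouse miRNAs. Levels are log2 of the scaled signal, in which 0 is the 75th percentile over 170 probes with a clear signal throughout the series. A miRNA is called read on an array where a probe of it was well above background there, and lower values were set to a floor of -5.58 on the log2 scale, below which levels have no order. The 224 miRNAs read on all 3 arrays of at least 1 line were tested with limma, and a difference passed where its two-sided p, adjusted after Benjamini and Hochberg, was under 0.05. Differences are 168FARN minus the other line on the log2 scale, ± the standard error (SE), and levels of a line are means ± the standard deviation (SD), with n = 3 arrays a line throughout. A fold written "at least" is against a line in which the miRNA was not read, and is taken over the lowest level read on that line's arrays. Array number limits the precision of every value.

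The 168FARN arrays read 175 to 191 miRNAs each, and 173 miRNAs were read on all 3 of them. For 67NR, 4TO7 and 4T1 the counts read on all 3 arrays were 141, 147 and 166. Over the 224 tested miRNAs the 168FARN arrays correlated with each other at 0.995 to 0.999, with 4T1 at 0.862 to 0.874, with 4TO7 at 0.837 to 0.850 and with 67NR at 0.539 to 0.551, as a description across miRNAs that share each array's scaling. One 168FARN array (replicate 1) was on the slide that held the 67NR arrays, and the remaining 8 arrays were on the other slide. The 67NR arrays were the dimmest, so their lowest read levels were -5.08 to -4.64 against -5.58 on the 168FARN arrays, and a low miRNA is harder to read there.

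The mature sequences of the miRNAs that carry the results are printed first, from RefSeq on GRCm38.p6, 5′ to 3′, with the seed in capitals. The first group holds miRNAs that were above every other line and were read in all 4, or, for miR-497 and miR-195, on all arrays but some or all of 4TO7.
let-7e: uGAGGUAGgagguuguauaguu
let-7i: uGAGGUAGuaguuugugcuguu
miR-125a-5p: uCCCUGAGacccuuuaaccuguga
miR-99b: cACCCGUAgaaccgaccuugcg
miR-29a: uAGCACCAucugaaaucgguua
miR-29b: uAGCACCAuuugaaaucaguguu
miR-29c: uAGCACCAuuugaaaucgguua
miR-497: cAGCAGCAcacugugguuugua
miR-195: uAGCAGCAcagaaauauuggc
The 3 miR-29 miRNAs share 1 seed, miR-497 and miR-195 share another, and let-7e and let-7i share yet another. miR-29a and miR-29c differ by C10U, with positions counted from the 5′ end of the first named.

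The second group was read on all 168FARN arrays and on no array of another line, except miR-199b, which was read on 1 array of 4T1.
miR-465c-3p: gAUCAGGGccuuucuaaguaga
miR-743a: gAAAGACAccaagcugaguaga
miR-743b-3p: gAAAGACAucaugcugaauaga
miR-741: uGAGAGAUgccauucuauguaga
miR-880: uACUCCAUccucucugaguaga
miR-470: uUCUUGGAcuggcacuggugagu
miR-199b: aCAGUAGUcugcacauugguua
miR-199a-5p: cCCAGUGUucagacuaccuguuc
Only miR-743a and miR-743b-3p among these 8 share a seed, and they differ by C9U, A12U and G18A. On GRCm38.p6 RefSeq places the first 6 on 1 stretch of the X chromosome, from miR-743a at chrX:66776760-66776781, minus strand, to miR-465c-3p at chrX:66825965-66825986, minus strand.

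The third group was below every other line.
miR-17: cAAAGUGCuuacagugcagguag
miR-106a: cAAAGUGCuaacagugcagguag
miR-20a: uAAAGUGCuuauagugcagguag
miR-20b: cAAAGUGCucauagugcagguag
miR-18a: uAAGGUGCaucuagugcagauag
miR-19a: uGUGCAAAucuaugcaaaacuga
miR-19b: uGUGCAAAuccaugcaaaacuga
miR-92a: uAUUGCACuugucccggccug
miR-130b: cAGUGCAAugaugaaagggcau
miR-193b: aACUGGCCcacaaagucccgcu
miR-17, miR-106a, miR-20a and miR-20b share 1 seed, and miR-19a and miR-19b share another. miR-17 and miR-106a differ by U10A alone, miR-20a and miR-20b by U1C and U10C, and miR-19a and miR-19b by U11C. Whether such near-identical pairs were told apart by the probes was not tested, so the values of miR-106a and miR-20b are uncertain where those of miR-17 and miR-20a are high. It was likewise not tested for miR-29a with miR-29c or for miR-743a with miR-743b-3p.

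Of the 224 tested miRNAs, 50 (22.3%) were higher in 168FARN than in each of the 3 other lines and 26 (11.6%) were lower than in each. These 3 comparisons share the 168FARN arrays and 1 fit, and most tested miRNAs passed in each of them. Against 67NR 197 miRNAs passed (87.9%), 90 higher (40.2%) and 107 lower (47.8%). Against 4TO7 the number was 167 (74.6%), with 88 higher (39.3%) and 79 lower (35.3%), and against 4T1 it was 166 (74.1%), with 89 higher (39.7%) and 77 lower (34.4%). The split into higher and lower depends on the scaling. Unscaled signals gave 107 and 72 against 67NR and 127 and 38 against 4TO7, a normexp background correction gave 48 and 154 against 67NR and 52 and 123 against 4TO7, and scaling on all probes gave 68 and 92 against 4T1. Arrays that did not overlap with any of the 9 others were found for 48 miRNAs above (21.4%) and 26 below (11.6%), and 48 of the 50 and 25 of the 26 members were among them. Among the 50 higher miRNAs the smallest of the 3 differences ran from 0.16 to 4.26 with a median of 1.11, and among the 26 lower ones its size ran from 0.14 to 2.97 with a median of 0.88. At least 2-fold differences from each line were found for 29 of the 50 and for 11 of the 26.

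The sets differ in how much of them was measured on both sides. Of the tested miRNAs 30 passed the filter through 168FARN alone, which by construction favours a higher level there, and 26 of them are in the higher set. Of the 194 read on all 3 arrays of another line, 24 (12.4%) were above every line and 26 (13.4%) below. Of the 50 higher miRNAs 12 were read in all 4 lines and 24 in 168FARN alone, while of the 26 lower ones 20 were read in all 4 lines and 6 were at the floor on every 168FARN array. Being read on all arrays of 1 line and on none of the others was seen for 24 miRNAs in 168FARN, 14 in 67NR, 2 in 4T1 and 0 in 4TO7. The plot of line means shows both sets against each line.

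**Figure D1:**
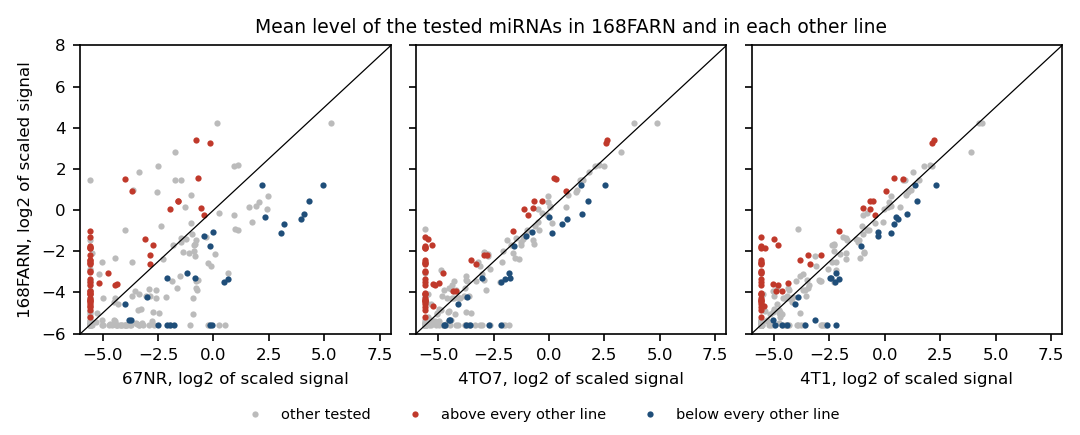
Mean level in 168FARN (y axis) against the mean level in 67NR, 4TO7 and 4T1 (x axis of each panel), both as log2 of the scaled signal, for the 224 tested miRNAs; the line marks equal levels. The 50 miRNAs above every other line (red) and the 26 below (blue) lie on 1 side of the line in all 3 panels, and the points are most scattered against 67NR.

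The cluster of miR-99b, let-7e and miR-125a on chromosome 17 (17967164 to 17967840, mm9) was higher in 168FARN as a whole: all 5 of its probed strands lay above every other line. miR-99b is known as a relative of miR-100, let-7e as a member of the let-7 family and miR-125a as a relative of the worm miRNA lin-4. let-7e was at 1.62, 1.64 and 1.39 on the 168FARN arrays. The 67NR arrays gave -0.79, -0.55 and -0.72, the 4TO7 arrays 0.30, 0.13 and 0.27 and the 4T1 arrays 0.42, 0.36 and 0.43. All 3 168FARN arrays were the highest, with no overlap. The difference was 2.24 ± 0.078 from 67NR, 1.32 ± 0.078 from 4TO7 and 1.15 ± 0.078 from 4T1, where it was 2.22-fold (limma, Benjamini-Hochberg adjusted p = 9.52e-08).

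Its neighbour miR-125a-5p stood at 0.39, 0.53 and 0.42 in 168FARN, against -1.67 to -0.54 on the 9 other arrays. Those of 67NR were the lowest, and 4TO7 and 4T1 lay together between. The differences were 2.03 ± 0.067, 1.11 ± 0.067 and 1.13 ± 0.067 from 67NR, 4TO7 and 4T1 (limma, largest Benjamini-Hochberg adjusted p = 3.27e-08). For miR-99b the 168FARN arrays gave 0.081, 0.017 and 0.13 and the others -2.20 to -0.55, with the smallest difference, 0.73 ± 0.087, from 4T1. The passenger strands miR-99b* and miR-125a-3p were dimmer, at -3.54 ± 0.037 and -3.60 ± 0.15 in 168FARN, and their smallest differences were 0.81 and 0.73. Both passenger strands reversed against 67NR with a normexp background correction, to -0.12 and -0.34, and the gene-level total signal gave -0.24 for miR-125a-3p.

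The miR-99, miR-100 and miR-125 relatives elsewhere in the genome did not share this pattern. Of the 7 tested members of that list 4 were above every other line and miR-99a, which lies on chromosome 16, was below. miR-99a was at -3.32, -3.23 and -3.39 in 168FARN and at -2.48 to -1.66 elsewhere, with a smallest difference of -0.88 ± 0.069, from 4T1, which was 0.0005 on unscaled signals. miR-125b-5p, which shares the seed of miR-125a-5p, was at 2.82 ± 0.050, above 67NR at -1.72 ± 0.057 but below 4TO7 at 3.23 ± 0.011 and 4T1 at 3.89 ± 0.065.

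All 4 tested miRNAs of the miR-29 family were above every other line, as were 22.3% of all tested. These miRNAs are known for repressing collagens and other matrix genes. miR-29a was among the brighter miRNAs of 168FARN, at 3.41, 3.51 and 3.36, against 2.65, 2.54 and 2.68 in 4TO7, 2.19, 2.14 and 2.28 in 4T1 and -0.83, -0.72 and -0.78 in 67NR. No 2 lines overlapped, and 67NR was far below the rest. The difference was 18.4-fold from 67NR, 2.33-fold from 4T1 and 1.75-fold from 4TO7, the last at 0.81 ± 0.055 (limma, Benjamini-Hochberg adjusted p = 9.79e-08).

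miR-29b had levels of 3.20, 3.37 and 3.18 in 168FARN and of -0.23 to 2.60 on the other arrays, and its nearest line was again 4TO7, with a difference of 0.70 ± 0.056. miR-29c was dimmer, at 0.032, 0.22 and 0.12, and here 67NR was the nearest line, at -0.61, -0.51 and -0.53, with a difference of 0.67 ± 0.050. The passenger strand miR-29b* read -2.38, -2.34 and -2.57 in 168FARN and -3.91 to -3.51 in 4TO7 and 4T1, while it was not read in 67NR, from which 168FARN was at least 5.26-fold higher. The 4 tested members had a median difference of 1.81 from the mean of the 3 lines, beside -0.21 over all 224 miRNAs. The miR-29 calls held with every other scaling tried, with normexp and with each array left out. miR-29c differs from the brighter miR-29a by 1 base, and whether the probes told these apart was not tested.

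Of the let-7 family, which is known for repressing Lin28, Ras and Hmga2, let-7e and let-7i of 9 tested members lay above every other line, beside the 22.3% of all tested miRNAs that did. let-7i stood at 1.54, 1.62 and 1.44 in 168FARN, at 0.80, 0.80 and 0.86 in 4T1, at 0.32, 0.16 and 0.41 in 4TO7 and at -4.06, -4.00 and -3.97 in 67NR. The 67NR arrays were near the lower end of what was read, so the difference was 46.6-fold from 67NR but 1.64-fold from 4T1, at 0.71 ± 0.063 (limma, Benjamini-Hochberg adjusted p = 1.02e-06). Over the 9 members the median difference was 2.47 from 67NR, -0.054 from 4TO7 and 0.17 from 4T1. All 9 were higher than in 67NR, whereas 2 were higher and 4 lower than in 4TO7, and 5 higher and 3 lower than in 4T1.

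miR-497 and miR-195, cut from 1 transcript on chromosome 11 (70048234 to 70048584, mm9) and known as members of the growth-restraining miR-15/16 family, were both above every other line. miR-497 was at -1.42, -1.35 and -1.50 in 168FARN and at -3.20, -2.94 and -3.10 in 67NR. In 4T1 it was at -5.02, -5.06 and -4.86, and in 4TO7 it was not read. The 168FARN arrays were the highest and 67NR the next, with a difference of 1.65 ± 0.079 (limma, Benjamini-Hochberg adjusted p = 1.95e-09), and 168FARN was 11.7-fold higher than 4T1 and at least 15.2-fold higher than 4TO7. miR-195 followed the same order, at -1.69, -1.60 and -1.80 in 168FARN, -2.70, -2.60 and -2.84 in 67NR, -4.82, -4.84 and -4.78 in 4T1 and -5.22, -5.44 and -5.13 in 4TO7, where it was read on 2 of 3 arrays. Its difference from 67NR was 1.02 ± 0.085.

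The other tested members of the miR-15/16 family did not share this order. miR-15b was below every other line by a small margin, at 1.19, 1.32 and 1.13 against 1.33 to 2.30 elsewhere, and its difference from 4T1 was -0.14 ± 0.056 (limma, Benjamini-Hochberg adjusted p = 0.0438). Leaving out any of 7 of the 12 arrays took that call away, with adjusted p between 0.0542 and 0.16, and unscaled signals reversed it to 0.37. Its passenger strand miR-15b* was also below every line, with a smallest difference of -0.46 that reversed to 0.65 on unscaled signals. miR-16 was below 67NR, by -1.80 ± 0.046, and above 4TO7 and 4T1. miR-15a was below 67NR and 4T1, by -2.10 ± 0.035 and -0.16 ± 0.035, and its difference from 4TO7 was 0.019 ± 0.035 (limma, Benjamini-Hochberg adjusted p = 0.687).

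Among the remaining higher miRNAs that were read in all 4 lines, miR-22, known as a tumour-linked miRNA cut from a noncoding transcript on chromosome 11, was at 0.44, 0.50 and 0.40 in 168FARN and at -1.60 to -0.25 elsewhere. Its arrays did not overlap with others, and the smallest difference was 0.76 ± 0.038, from 4TO7. Its passenger strand miR-22* was above every line too, at -4.67 ± 0.094, by a smallest difference of 0.55, which reversed to -0.55 with normexp and was 0.0017 with a doubled floor. miR-140 and miR-140*, from an intron of Wwp2 and known from cartilage, had smallest differences of 0.26 and 0.68. With normexp that of miR-140 reversed to -0.21 and that of miR-140* fell short of the threshold at 0.10, and the gene-level signal gave -0.019 for miR-140. miR-30a exceeded 67NR by 0.19 ± 0.050 and 4T1 by 0.20 ± 0.050, and miR-709, whose arrays overlapped with those of 4TO7, exceeded 4TO7 by 0.16 ± 0.060. The call of miR-30a reversed with 2 alternatives, to -0.047 with scaling on all probes and -0.056 with the gene-level signal. It was lost with slide as a term and on unscaled signals, among others. That of miR-709 was lost without 168FARN replicate 1 or 3 or without 4TO7 replicate 1 or 3. It was also lost with normexp, scaling on all probes, the gene-level signal and slide as a term, among others.

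**Figure D2:**
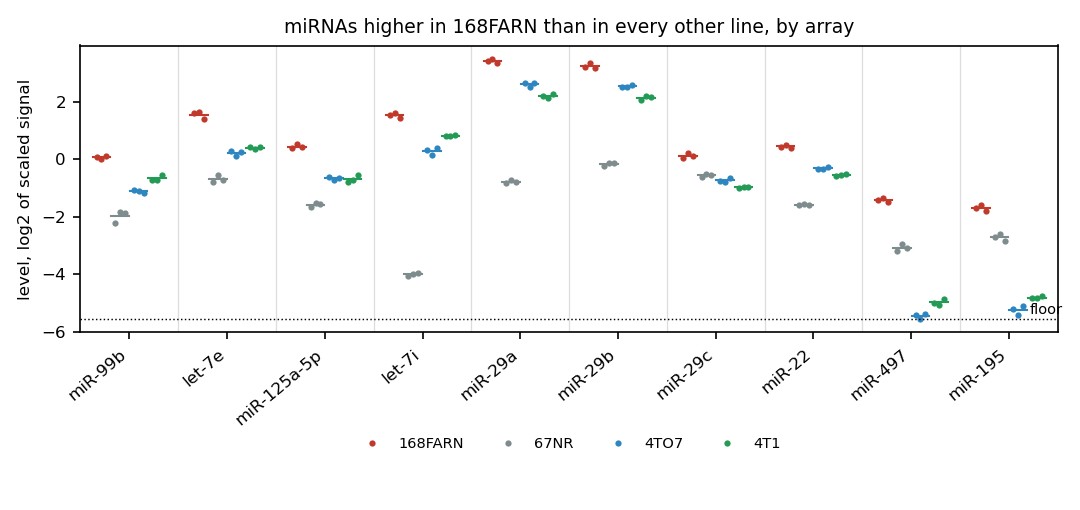
Level of 10 miRNAs on each array (log2 of the scaled signal, y axis), grouped by line; points are arrays, short bars line means, and the dotted line is the floor. The 3 168FARN arrays lie above the 9 others for each miRNA, and the smallest difference between 168FARN and another line's mean is 0.67, for miR-29c.

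miR-146a, known as a negative regulator of NF-kB signalling, was read on all arrays of 168FARN and 4T1 and on no other. In 168FARN it stood at -1.87, -1.78 and -1.88, and in 4T1 at -5.45, -5.32 and -5.40. All 168FARN arrays were far above the others. The difference from 4T1 was 3.54 ± 0.037, or 11.7-fold (limma, Benjamini-Hochberg adjusted p = 1.26e-14), and 168FARN was at least 7.88-fold above 67NR and at least 11.7-fold above 4TO7. miR-350 was at -1.04, -0.96 and -1.09 in 168FARN against -2.08 to -1.61 in the lines 4TO7 and 4T1, and was not read in 67NR, with a smallest difference of 0.61 ± 0.035. miR-503, of an X-linked cluster, exceeded 4TO7 by 0.27 ± 0.039 and miR-450a-5p of the same cluster was below every line, nearest to 4T1 at -0.32 ± 0.096. That cluster was the only one of those with neighbours within 10 kb that held a miRNA of each set, and miR-503 reversed to -0.069 with quantile scaling and to -0.20 with normexp. The call of miR-450a-5p was lost under 7 alternatives, among them normexp at -0.019, the mean of all probes at -0.16, unscaled signals at -0.22 and a doubled floor at 0. Chosen after their values were seen, and for completeness, miR-28, miR-690 and miR-872 were also above every line, by 0.79, 0.63 and 0.41 at the least. With normexp miR-28 reversed against 67NR, to -0.32, and miR-872 against 4TO7, to -0.16. The call of miR-872 was also not kept over the 3 other scalings.

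The clearest group read in 168FARN alone lay on the X chromosome near Fmr1, where mice carry a fast-evolving cluster of miRNAs known from testis and germ cells. The array probes 23 of its miRNAs over 49.3 kb (X, 64029935 to 64079192 in the mm9 coordinates of the files). Of these 18 were read on all 3 168FARN arrays, and none was read on all arrays of another line. All 18 therefore entered the test through 168FARN alone, so that their all being above every other line follows in large part from the filter, and their levels are what describes them. The remaining 5 (miR-743b-5p, miR-883b-5p, miR-463, miR-463* and miR-881*) were at the floor in 168FARN. A further 6 probed members of the wider list, among them miR-201, miR-547 and miR-509, were not tested.

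The brightest was miR-465c-3p, at -1.35, -1.20 and -1.41 on the 168FARN arrays and at the floor on the 9 others. Before scaling its processed signals were 477, 405 and 297 in 168FARN and -1.59 to 1.56 elsewhere, so no array of another line came near. 168FARN was at least 11.3-fold above 67NR, 16.9-fold above 4TO7 and 19.1-fold above 4T1 (limma, largest Benjamini-Hochberg adjusted p = 1.26e-14). The 168FARN levels of miR-743a were -1.73, -1.63 and -1.80, those of miR-741 were -1.80, -1.61 and -1.93, and both were at the floor elsewhere. At least 8.59-fold and 8.24-fold separated them from 67NR.

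Next in level came miR-880 at -2.42 ± 0.11, miR-883a-3p at -2.50 ± 0.080, miR-743b-3p at -2.58 ± 0.11, miR-470 at -2.60 ± 0.062 and miR-471 at -2.97 ± 0.10, all at least 3.62-fold above 67NR. miR-871 and miR-878-5p followed at -3.49 and -3.63. The dimmest 7, from miR-881 at -4.05 to miR-465c-5p at -5.20, were closer to the floor. Both strands of a hairpin were read for several members, as with miR-465c-3p and miR-465c-5p or miR-470 and miR-470*. The level of miR-465c-5p was under the lowest level read on a 67NR array, so no fold from 67NR is given for it.

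miR-878-3p was the exception in the cluster. It stood at -3.25, -2.80 and -3.16 in 168FARN, but 1 array of 67NR gave -3.09 and 1 of 4TO7 gave -3.25, inside the 168FARN range, while the other 7 arrays of these lines and 4T1 were at the floor. Its differences were 1.68 ± 0.72 from 67NR and 1.73 ± 0.72 from 4TO7 (limma, Benjamini-Hochberg adjusted p = 0.0467 and 0.0483). Leaving out any of 10 of the 12 arrays took the call away; it stayed without 67NR replicate 1 and without 4TO7 replicate 3.

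Summed over its 29 probed names and divided by each array's scale, the cluster's linear signal was 2.35 to 2.71 on the 168FARN arrays, 0.0021 to 0.0872 for 67NR, -0.0094 to 0.118 for 4TO7 and -0.0026 to 0.0144 for 4T1. With a normexp background correction 8 of the 18 stayed above every other line, and 17 of 18 did so with all 3 other scalings. The offset of 50 in that correction is divided by each array's scale, which by construction raises the lowest levels most on the dim 67NR arrays. Values at the floor do not vary, and the spread is estimated over all 4 lines together. The arrays at the floor therefore lower that estimate, so the small adjusted p of these miRNAs is in part a product of the floor. The same holds for other miRNAs at the floor on all arrays of a line, miR-199b and miR-126-3p among them.

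**Figure D3:**
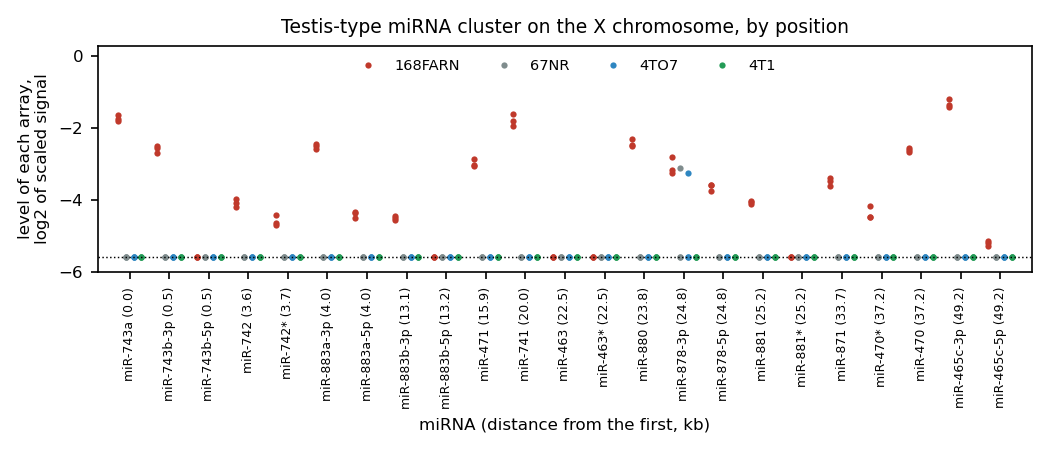
Level of the 23 probed miRNAs of the X-linked cluster on each of the 12 arrays (log2 of the scaled signal, y axis), in order of position with the distance from miR-743a in kb in brackets; the dotted line is the floor. The 168FARN points lie above the floor for 18 miRNAs, while apart from 1 array of 67NR and 1 of 4TO7 at miR-878-3p the other lines are at the floor.

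Mesenchymal miRNAs formed the next group. Of 10 probed names on a list of miRNAs known from fibroblasts, smooth muscle and cartilage, 6 were tested and above every other line. Of these miR-199b, miR-199a-5p, miR-199b* and miR-143 passed the filter through 168FARN alone, so that the count says little, and miR-140 and miR-140* were read in all 4 lines. miR-199b, which here stands for a strand with the same sequence in the miR-199a hairpins, was at -1.87, -1.70 and -1.94 in 168FARN and at the floor on all others. miR-199a-5p was at -2.98, -2.95 and -3.10, and miR-199b* at -3.31, -3.27 and -3.40, again with every other array at the floor. The folds were at least 7.93, 3.52 and 2.82 against 67NR (limma, largest Benjamini-Hochberg adjusted p over these miRNAs and lines = 7.54e-14).

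miR-143, known from smooth muscle and fibroblasts, was fainter, at -4.33, -4.12 and -4.39, and was read in no other line. Its partner miR-145, and miR-214 and both passenger strands miR-145* and miR-214*, were not read on any 168FARN array. The summed signal of the list, divided by each array's scale, was 0.914 to 0.991 in 168FARN. For 67NR it was 0.255 to 0.299, for 4TO7 0.223 to 0.238 and for 4T1 0.252 to 0.254. In 168FARN 6 of its members were read, against 2, miR-140 and miR-140*, on all arrays of each other line. All 6 calls held with the 3 other scalings, and 2 held with normexp. In bulk RNA more cells of a type and more RNA per cell cannot be told apart, and whether a few cells of another type carry the signal was not tested.

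Markers of other cell types were unread in 168FARN for some lists and read in part for others. None of 12 probed epithelial strands, of miR-200a, miR-200b, miR-200c, miR-141, miR-429, miR-203 and miR-205, was read on any 168FARN array, and none was read on all arrays of any other line; 67NR had miR-141 and miR-200c on 1 array each. Of 7 haematopoietic names 1, miR-142-3p, was read, at -4.68, -4.63 and -4.78 in 168FARN and on no other array, and miR-142-5p, miR-223, miR-150, miR-150*, miR-144 and miR-451 were not. The list's summed signal, divided by each array's scale, was 0.0491 to 0.0575 in 168FARN, 0.0212 to 0.0393 in 67NR, 0.0171 to 0.0301 in 4TO7 and 0.0084 to 0.0146 in 4T1. Of 6 muscle names only miR-206 was read, at -4.79, -4.78 and -5.05, while miR-1 and miR-133a were not. Its mean lies under the mean of the lowest levels read on the 67NR arrays, so its fold is given against 4TO7, at least 1.44, and 4T1, at least 1.63. The smallest differences of miR-142-3p and miR-206 reversed to -0.47 and -0.46 with normexp and were 0 with a doubled floor. Of 7 nervous system names miR-128, miR-9 and miR-9* were read on all arrays of every line, and miR-124, miR-124*, miR-137 and miR-153 were not read in 168FARN. That list's sum, scaled likewise, was 0.173 to 0.199 in 168FARN, 0.842 to 0.914 in 67NR, 0.159 to 0.188 in 4TO7 and 0.145 to 0.151 in 4T1.

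The endothelial miR-126-3p, from an intron of Egfl7, went the other way. It was not read in 168FARN and read on all 9 other arrays, at -2.01, -1.90 and -1.96 in 67NR, -4.67, -4.89 and -4.67 in 4TO7 and -4.69, -4.65 and -4.58 in 4T1. 168FARN was at least 12.3-fold lower than 67NR, 1.78-fold lower than 4TO7 and 1.91-fold lower than 4T1 (limma, largest Benjamini-Hochberg adjusted p = 1.12e-07). With a doubled floor its smallest difference was 0, so it was no longer below every line. Of 4 liver and pancreas names and 12 embryonic stem cell names none was read in 168FARN.

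**Figure D4:**
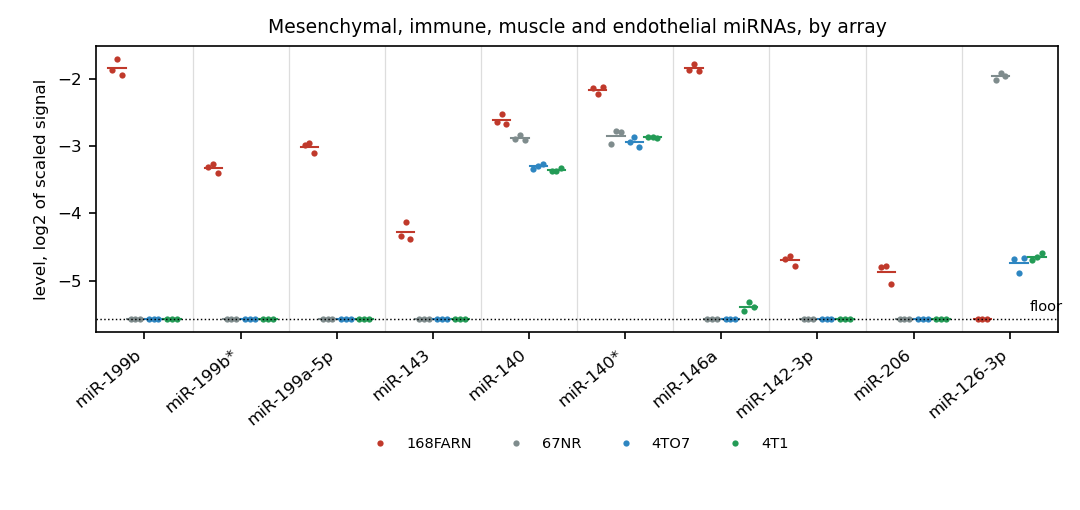
Level of miR-146a and of 9 miRNAs of the mesenchymal, haematopoietic, muscle and endothelial lists on each array (log2 of the scaled signal, y axis), grouped by line; points are arrays, short bars line means, and the dotted line is the floor. In 168FARN 9 of the 10 are read and above the other lines, and miR-126-3p is at the floor there and read in the others.

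miR-34b-5p and miR-34c, cut from 1 transcript and known as targets of p53, were read on the 168FARN arrays alone. Their levels were -4.07, -3.86 and -4.08 and -4.39, -4.20 and -4.44, at least 2.63-fold and 2.08-fold above 4TO7, and every other array was at the floor. miR-34a of the same family did not follow, since it stood at 0.90, 1.06 and 0.96 in 67NR and at -0.94, -0.82 and -1.02 in 168FARN, with -3.88, -3.94 and -3.88 in 4T1 and no reading in 4TO7. With normexp both miR-34b-5p and miR-34c reversed against 67NR, to -0.25 and -0.35.

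The lower miRNAs were led by the miR-17-92 cluster on chromosome 14 (115442915 to 115443718, mm9), a Myc-driven cluster known for promoting cell cycle entry and survival. Of its 9 tested strands 7 were below every other line (26 of 224, or 11.6%, over all tested miRNAs), and the median difference of the 9 from the mean of the 3 lines was -2.09. For miR-17 the 168FARN levels were -3.30, -3.31 and -3.41, those of 4TO7 -2.01, -1.91 and -2.04, those of 4T1 -2.15, -2.00 and -1.99 and those of 67NR 0.68, 0.53 and 0.71. The 168FARN arrays were the lowest, 4TO7 and 4T1 overlapped with each other, and 67NR was far above. The differences were -3.98 ± 0.061, -1.35 ± 0.061 and -1.29 ± 0.061 from 67NR, 4TO7 and 4T1, the last 2.45-fold (limma, Benjamini-Hochberg adjusted p = 3.47e-09).

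The other main strands had much the same size of difference. miR-18a stood at -1.16, -1.01 and -1.22 in 168FARN and at 0.066 to 0.31 in 4TO7 and 4T1, and its smallest difference was -1.27 ± 0.051. miR-92a was at -0.29, -0.13 and -0.13 against 0.89 to 1.52 in these lines, with -1.19 ± 0.076 from 4T1. The brightest member, miR-19b, was at 1.24 ± 0.078 in 168FARN and 4.92 ± 0.071 in 67NR, with smallest difference -1.06 ± 0.049. For miR-19a and miR-20a the smallest differences were -1.05 ± 0.056 and -1.04 ± 0.044, both from 4T1. Over these 6 main strands the differences from 67NR ran from -4.41 to -3.68, while those from 4TO7 and 4T1 ran from -1.66 to -1.04. RefSeq places miR-19b and miR-92a at 2 loci each, so their signal cannot be assigned to this cluster alone.

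Passenger strands of the cluster split. miR-18a* was at the floor on all 168FARN arrays though marked as read on 2, and at -4.69 ± 0.18 in 4TO7, and its call was lost with a doubled floor, at -0.0002. miR-17* was lower in 168FARN than in 4TO7 and 4T1, with differences of -1.302 ± 0.041 and -1.23 ± 0.041, but at the floor in 67NR, so it was not below every line. miR-20a* was at the floor in both 168FARN and 67NR. The 7 calls below every line held with all 3 other scalings and with each array left out.

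Of the paralog clusters, miR-106a and miR-20b on the X chromosome were below every line too, and no tested miRNA of the miR-106b-25 cluster was. miR-106a was at -3.53, -3.37 and -3.53 in 168FARN and -2.30 to 0.55 elsewhere, and miR-20b at -0.71, -0.64 and -0.70 and 0.40 to 3.20. Their smallest differences were -1.22 ± 0.052 and -1.09 ± 0.029, both from 4T1 (limma, largest Benjamini-Hochberg adjusted p = 1.47e-09). They differ from miR-17 and miR-20a by 1 and 2 bases, as printed above. Of the 6 tested miRNAs of both paralog clusters the median difference was -1.71 from 67NR, 0.10 from 4TO7 and -0.096 from 4T1.

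**Figure D5:**
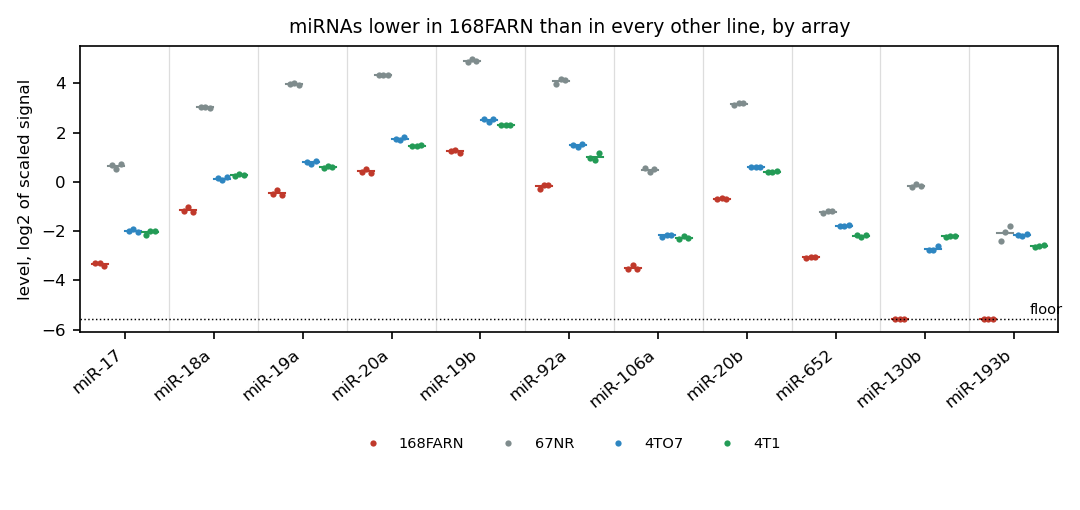
Level of 11 miRNAs on each array (log2 of the scaled signal, y axis), grouped by line; points are arrays, short bars line means, and the dotted line is the floor. The 168FARN arrays lie below the 9 others for each miRNA, and miR-130b and miR-193b are at the floor in 168FARN.

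Not read on any 168FARN array but read on all 9 others were 5 miRNAs: miR-193b, miR-130b, miR-126-3p and both strands of miR-340. By the same count 19 miRNAs were missing in 67NR alone, 6 in 4TO7 alone and 0 in 4T1 alone. miR-193b, known for repressing the estrogen receptor and urokinase in breast cancer, stood at -2.42, -2.03 and -1.78 in 67NR, -2.14, -2.21 and -2.10 in 4TO7 and -2.65, -2.62 and -2.54 in 4T1. 168FARN was at least 7.84-fold lower than 4T1, the nearest line (limma, Benjamini-Hochberg adjusted p = 1.03e-09). For miR-130b the levels were -0.21, -0.10 and -0.18 in 67NR, -2.23, -2.22 and -2.20 in 4T1 and -2.76, -2.75 and -2.60 in 4TO7, so that 168FARN was at least 42.6-fold, 10.3-fold and 7.31-fold lower. Its relative miR-130a did not share this: 168FARN had 1.47 ± 0.077, 4TO7 1.38 ± 0.024 and 4T1 1.53 ± 0.0070, and it was not read in 67NR.

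miR-340-5p was at -5.04 to -2.45 on the other 9 arrays and lowest in 4T1, from which 168FARN was at least 1.53-fold lower; with a doubled floor that difference was 0. Its other strand miR-340-3p was at the floor in 4T1 too, so no order of these 2 lines can be given. miR-196b, from the Hox clusters, was at the floor on all 168FARN arrays though marked as read on 1, and at -0.074 ± 0.095 in 67NR, -3.76 ± 0.020 in 4TO7 and -3.60 ± 0.080 in 4T1. Its difference from 4TO7, the nearest, was -1.82 ± 0.050 with 168FARN taken at the floor.

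Also read in all lines was miR-652, from an intron of Tmem164. It was at -3.09, -3.05 and -3.06 in 168FARN, -2.17, -2.22 and -2.15 in 4T1, -1.79, -1.81 and -1.76 in 4TO7 and -1.26, -1.17 and -1.20 in 67NR, with no overlap between lines, and its difference from 4T1 was -0.89 ± 0.032 (limma, Benjamini-Hochberg adjusted p = 3.60e-10). miR-181d was near the floor in 168FARN, at -5.58, -5.22 and -5.19, and at -4.57 to -3.13 elsewhere, and its call was lost with a doubled floor, at -0.12, and on unscaled signals, at -0.37. Smaller margins were found for miR-9, miR-103, miR-30b and miR-301a, whose smallest differences were -0.34, -0.32, -0.28 and -0.20. On unscaled signals these 4 reversed to 0.090, 0.30, 0.34 and 0.41. Chosen after their values were seen, miR-324-5p and miR-151-5p completed the set at -0.30 and -0.16, and the arrays of miR-151-5p overlapped with those of 4TO7. Neither miR-324-5p nor miR-151-5p kept its call over the 3 other scalings.

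Set against the mean of the 3 other lines, 210 of 224 miRNAs passed (93.8%), 90 higher (40.2%) and 120 lower (53.6%), with 52 and 37 of them at least 2-fold apart. This mean weighs 67NR, the line with the lowest correlation to 168FARN, like the others. With the mean of 4TO7 and 4T1 alone 93 were higher and 83 lower, and of the 210 miRNAs that had passed 144 passed in the same direction, 26 in the other direction and 40 not at all. On unscaled signals the split was 115 higher and 65 lower and the median difference moved from -0.21 to 0.34, and with normexp it was 61 and 138, so the direction of small differences is relative to the scaling.

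For some miRNAs the difference from the mean rested on 67NR. miR-130a was 2.36 ± 0.029 higher than the mean but 0.020 ± 0.032 against 4TO7 and 4T1. let-7b went from 1.97 ± 0.064 to 0.33 ± 0.067. The direction turned for miR-125b-5p, from 1.02 ± 0.034 to -0.75 ± 0.032 (limma, Benjamini-Hochberg adjusted p = 5.20e-07), and for miR-31, known for restraining metastasis, from 0.97 ± 0.027 to -0.25 ± 0.028. miR-221 and miR-222, repressors of the cell cycle inhibitor p27, turned from -0.56 ± 0.072 and -0.58 ± 0.045 to 0.34 ± 0.074 and 0.23 ± 0.048. miR-320 was -1.77 ± 0.17 from the mean, with 168FARN arrays at -5.45, -4.47 and -5.22, which is a wide spread for this line, and -0.59 ± 0.22 without 67NR.

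Other miRNAs kept their direction. Without 67NR miR-497 was 3.79 ± 0.064 and miR-195 3.34 ± 0.074 above the mean of 4TO7 and 4T1, let-7i was 0.98 ± 0.061, miR-29a 1.01 ± 0.050 and miR-350 0.81 ± 0.030. The lower ones, miR-92a at -1.43 ± 0.067, miR-18a at -1.34 ± 0.050, miR-17 at -1.32 ± 0.049, miR-106a at -1.26 ± 0.043 and miR-20b at -1.18 ± 0.016, lay close together. miR-34a, which 67NR had in greater amount, was 3.81 ± 0.042 without that line and 1.91 ± 0.043 with it.

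The large cluster in an intron of Sfmbt2 on chromosome 2, whose miRNAs are known from the placenta and from embryonic stem cells, separated the lines in pairs. None of its 13 tested miRNAs was read on a 168FARN or 67NR array, and all 13 were read on every array of 4TO7 and 4T1, through which alone they passed the filter. miR-669a was at -1.82, -1.86 and -1.74 in 4TO7 and -2.66, -2.67 and -2.60 in 4T1, and all 13 were lower in 168FARN than in 4TO7 and 11 than in 4T1. For miR-669a 168FARN was at least 13.6-fold and 7.63-fold lower. miR-466e-3p and miR-467a* gave at least 12.2-fold and 11.2-fold from 4TO7. Since 67NR was at the floor as well, none was below every line, although 12 of the 13 were called so with the normexp correction.

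Lists of miRNAs reported to act in breast cancer metastasis are given beside all tested miRNAs, of which 40.2% were higher than the mean of the other lines, 53.6% lower, 22.3% above every line and 11.6% below. Of 12 tested that are reported to promote it, 5 were higher and 7 lower than the mean of the other lines, and 2 were below every line and 0 above. Among 9 tested miRNAs with a reported suppressing role the numbers were 5 and 4, with miR-146a and miR-206 above every line and miR-126-3p and miR-193b below; the calls of miR-206 and miR-126-3p are those that a doubled floor ended. miR-148a, one of these, was not read in 168FARN and was at 0.51 ± 0.054 in 67NR and -2.65 ± 0.043 in 4TO7. In 4T1 it was at the floor as well, though marked as read on 2 arrays, so its low level is not particular to 168FARN. Of the Hox-linked miR-10 and miR-196 list 4 of 5 were lower than the mean, beside the 53.6% over all tested. Against 67NR all 5 were lower, while against 4TO7 and against 4T1 1 was lower and 1 higher. miR-10a*, miR-10b and miR-196a were at the floor in 168FARN, 4TO7 and 4T1 alike, so their difference from the mean rests on 67NR. miR-132, driven by CREB in neurons, was at the floor in 168FARN and 4TO7 and at -2.75 ± 0.060 in 4T1. Members of the miR-23/24/27 family, the miR-183 cluster, miR-221 with miR-222, miR-31 and the Clcn5 intron were in neither set.

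The place of the members in the genome is given as a description. Of the 50 higher miRNAs 37 had another of the set within 10 kb, in 10 clusters, and of the 26 lower ones 11 did, in 3 clusters. How many of all tested miRNAs have such a neighbour was not counted, so these counts have no share beside them. The 10 kb rule also sets miR-465c-3p and miR-465c-5p apart from the rest of the cluster near Fmr1. The X chromosome held 19 of the 50 (38.0%), beside 39 of the 219 tested miRNAs with a position (17.8%). Of the 19, 18 were of the cluster near Fmr1 that passed the filter through 168FARN alone. A second probe that was itself read on all arrays of at least 1 line was present for 44 of the 50. It had the same direction against every line in all 44, and for the lower set this was so for 22 of 25. In the higher set 26 miRNAs passed the filter through 168FARN alone. Where these had a second probe, its direction follows in large part from the filter. On the slide that 168FARN replicate 1 shared with 67NR, and on the other slide against 4TO7 and 4T1, each of the 50 and each of the 26 kept its sign. For 48 of the 50 and 25 of the 26 the 168FARN arrays did not overlap with those of another line. The sign could not change for these, so the within-slide signs are no test of an effect of the slide. For let-7e these within-slide differences were 2.31, 1.28 and 1.11 and for miR-17 they were -3.95, -1.37 and -1.31.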

How the data were processed

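Mature miRNAs were measured in total RNA (100 ng) of 4 cell lines, 3 one-colour Agilent arrays a line. Per the file headers the authors' intensity values came from Feature Extraction 10.2.1.3, which subtracted a spatially detrended background and left arrays unscaled. Coordinates of the array are mm9, per the file headers, and sequences are RefSeq's on GRCm38.p6, matched by name for 171 of the 567 miRNAs, 32 of them after older strand names were paired with current ones.

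Control and flagged spots were left out and spots of a probe averaged. Arrays were scaled to the 75th percentile of 170 probes read throughout, floored and put on the log2 scale, and the brightest probe stood for a miRNA. limma 3.58.1 in R 4.3.3 (statmod 1.5.0) fitted the 4 lines to all 12 arrays with 8 residual degrees of freedom, and p-values were adjusted (Benjamini-Hochberg) over the 224 tested miRNAs. The fit was tested on simulated data. The main fit did not pair arrays by replicate number. Deviations of same-numbered arrays of different lines correlated at -0.80 to 0.56, with a median of 0.0074. For arrays with different numbers the range was -0.69 to 0.86, with a median of 0.015.

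Members and lists were chosen with earlier results of these data known. Named miRNAs are up to 12 a direction with the largest smallest difference among those measured in all 4 lines whose arrays did not overlap. For the higher direction this limit was not reached, so every miRNA that qualified was taken. To these were added the 10 highest in level among those read on all 168FARN arrays and on none of the 9 others. Those read on the 9 others and on no 168FARN array were taken too. The 10 highest and 10 lowest against the mean came from those called and read in 168FARN and at least 2 other lines. Lists gave 2 to 4 members each in order of adjusted p (all where 6 or more lie in a set). Genome neighbours within 10 kb and sharers of a seed completed the named miRNAs. Alternatives covered scaling, background correction, probe choice, filters, floor, slide, variance model and single arrays.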

Additional observations from a re-analysis of the deposited data

Results flagged for a closer look

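One signal outside the main measurement stood out. The control probes named hur_5, which enter no comparison, had a mean processed signal of 193.7 on the 3 67NR arrays (180 to 207), against 1.25 to 6.36 on the 9 other arrays, 168FARN included. What these probes report is not stated in the sources used here, and their part in the differences between 168FARN and 67NR was not tested.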

How the results depend on the processing

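Leaving out 1 array at a time gave 48 to 50 miRNAs above every other line and 24 to 30 below, and 87 to 91 higher and 116 to 121 lower than the mean of the lines. The replicate number as a block gave 48 above and 25 below, and the calls of miR-709, miR-878-3p and miR-15b were lost. Over 3 other scalings 45 of the 50 and 15 of the 26 kept their call, and over all 27 alternatives with the 3 comparisons 24 and 12 did. Of 2748 values of 100 named results, 2621 kept their call, or lack of one, and the called ones among them kept their direction. A further 93 lost the call without turning, some of them at a difference of 0, and 34 reversed.

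Testing only the 97 miRNAs read on all 12 arrays leaves out, by construction, those read in few lines. These 97 gave 31 higher and 59 lower than the mean. The counts were 30 and 62 against 67NR, 35 and 40 against 4TO7, and 39 and 39 against 4T1. Of the 97, 12 were above every line and 20 below. Without scaling 65 were lower than the mean, 38 lower than 4TO7 and 16 below every line. With normexp 48 were higher than 67NR, 52 higher and 123 lower than 4TO7, 25 above and 42 below every line. Without 67NR, and so with 1 condition fewer to meet, 52 were below every line.

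Reversals with normexp, in the smallest difference, were miR-140 at -0.21, miR-881 at -0.22, miR-883b-3p at -0.41, miR-742 at -0.14, miR-883a-5p at -0.29, miR-470* at -0.34, miR-742* at -0.40, miR-465c-5p at -0.56, miR-142-3p at -0.47, miR-143 at -0.27, miR-503 at -0.20, miR-34b-5p at -0.25, miR-34c at -0.35, miR-125a-3p at -0.34, miR-206 at -0.46, miR-22* at -0.55 and miR-99b* at -0.12. Without scaling miR-99a gave 0.0005, miR-15b* 0.65, miR-103 0.30, miR-301a 0.41, miR-30b 0.34, miR-9 0.090, miR-15b 0.37 and, against the mean, miR-221 0.0056. Scaling on all probes gave miR-30a -0.047, quantile scaling miR-503 -0.069, and the gene-level total signal miR-140 -0.019, miR-30a -0.056 and miR-125a-3p -0.24. Against the mean of 4TO7 and 4T1 miR-125b-5p was -0.75, miR-31 -0.25, miR-221 0.34 and miR-222 0.23. These reversals are those of the named results only. Outside them, the smallest difference reversed with normexp for miR-28, to -0.32, and for miR-872, to -0.16. The cause was not tested except where the construction is named.

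Low signal limits the results: miRNAs near the floor, and those unread on the dim 67NR arrays, have bounds and no measured difference.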
